A study of Mus musculus with 4 samples.

Results

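Translation initiation, elongation and termination factors were examined in mouse Hoxb8 cells expressing DNMT3A R882H and in Hoxb8 cells with an empty vector. The factors were chosen by symbol. They are the protein-coding genes that begin with Eif1, Eif2b, Eif2s, Eif3, Eif4a, Eif4b, Eif4e, Eif4g, Eif4h, Eif5, Eif6, Eef1 or Eef2, together with Etf1, Gspt1 and Pabpc1. The sex-linked eIF2 gamma genes Eif2s3x and Eif2s3y, the 4E-binding proteins and pseudogenes were left out, and at least 20 counts over the 4 libraries were required. Of 52636 gene lines in the table, 67 carried such a symbol, 8 of these were pseudogenes, 59 were protein-coding and 55 reached the minimum. The lowest total among the 55 was 44 counts (Eef1akmt3). The highest total below the minimum was 13 counts, for the eIF5A paralogue Eif5a2, which had 2 and 11 counts in the R882H libraries and 0 and 0 in the EV libraries. Eif3j2 had 11 counts in all, and Eef1a2 and Eif4e1b had 0 counts in every library, which allows up to 3 counts per library, or 0.507 to 0.548 CPM (counts scaled to the size of the library, here the plain totals without the TMM factors used for every other CPM value).

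The R882H group (2 libraries) came from Hoxb8 cells, a line named for the homeobox gene used to hold myeloid progenitors in a proliferating state, that express the R882H form of the DNA methyltransferase DNMT3A, a recurrent substitution in acute myeloid leukaemia. The EV group (2 libraries) came from the same named line with the empty vector. The vector's promoter, the number of clones and the source animals were not given in the sources used here. No label says that replicates came from separate cultures, and the p-values therefore cover only the spread between libraries, which may be technical. The assay was QuantSeq, a 3′ tag protocol that reads near the poly(A) tail, so counts need no correction for transcript length.

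Translation begins when eIF2, loaded with GTP and the initiator tRNA, joins the small ribosomal subunit together with eIF1, eIF1A, eIF3 and eIF5. The eIF4F complex, made of the cap-binding eIF4E, the scaffold eIF4G and the helicase eIF4A, brings this particle to the capped mRNA, and eIF5B joins the large subunit at the start codon. Elongation then cycles between eEF1A, which delivers aminoacyl-tRNA, and eEF2, which moves the ribosome along the mRNA, until eRF1 and eRF3 release the chain. Many mRNAs of these factors start with a run of pyrimidines, through which mTOR signalling controls their own translation, and in blood progenitors the rate of protein synthesis is closely regulated.

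Libraries held 5921985 and 5847609 counts in R882H and 5470330 and 5605092 in EV. Across genes, which are not independent replicates, Pearson's r of log2 CPM was 0.990 between the R882H libraries, 0.989 between the EV libraries and 0.917 to 0.926 between groups. Dnmt3a had 254 and 239 counts in R882H and 264 and 270 in EV, which does not check the vector, since tags from a vector transcript need not fall in the gene's own 3′ end. Transcripts outside the translation factors also set the groups apart. The Y-linked gene Ddx3y had 65 and 41 counts in R882H and 0 and 2 in EV, and Eif2s3y had 26 and 29 in R882H and 1 and 0 in EV, while the X-linked RNA Xist had 1880 and 1509 counts in R882H and 1463 and 1438 in EV. Hoxb8 itself had 15 and 4 counts in R882H and 25 and 44 in EV. For Hoxb8 too, tags from any introduced copy need not fall in the gene's own 3′ end. All 11 progenitor markers examined, Hoxb8 included, were detected in both groups, with summed levels of 5242 and 5284 CPM in R882H and 3421 and 3372 CPM in EV. Of the 11, Mpo (1242 CPM on average in R882H and 32.7 CPM in EV), Ctsg, Flt3 and Kit were called higher, Hoxb8 and Cebpa lower, and 5, Cd34 among them, were not called. The summed level of 5 B-lineage genes was 1186 and 1234 CPM in R882H and 352 and 342 CPM in EV. The sum of 5 basophil and mast cell genes, of which Fcer1a had no counts, was 404 and 417 CPM in R882H and 91.1 and 94.96 CPM in EV, with Cpa3, Prss34 and Mcpt8 called higher and Gata2 lower. The megakaryocyte genes (4) summed to 27.3 and 22.3 CPM in R882H and 1042 and 851 CPM in EV. Nearly all of the EV sum was Pf4 (12.8 CPM on average in R882H and 938.6 CPM in EV), while Itga2b was called higher in R882H and Gp9 was not called. The T-lineage genes (4, with Cd3e and Cd3g at 0) summed to 12.6 and 8.78 CPM in R882H and 622 and 713 CPM in EV, of which Thy1 was nearly all. The macrophage genes (3) summed to 69.6 and 61.3 CPM in R882H and 52.5 and 55.6 CPM in EV, with Cd68 called higher, Adgre1 lower and Csf1r not called. The late neutrophil genes (4, with Ltf, Camp and Ngp at 0) summed to at most 0.183 CPM in any library, and the 3 fibroblast genes were at 0. Whether both groups came from the same animal was not given, so differences of source and of vector cannot be told apart. The part of the marker differences in the changes below was not tested, and in bulk RNA a change in the share of cells and a change in RNA per cell cannot be told apart.

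The comparison asked which of the factors differ between R882H and EV cells. All 55 passed the filter on low counts, and edgeR's quasi-likelihood test, adjusted over all 11444 tested genes with a threshold of 0.05, called 23 of them. Among all tested genes 38.8% were called, so the share of 41.8% among the factors lies near the background. Of the 55, 54 averaged at least 20 CPM, and among all tested genes of that level 40.1% were called. Of the 23, 5 were higher in R882H (9.09% of the factors, against 19.3% of all tested genes) and 18 were lower (32.7%, against 19.4%). The median log2 fold change (R882H over EV) was −0.23 for the factors and 0.01 for all tested genes. The changes were small: the median absolute log2 fold change was 0.31 for the factors and 0.36 for all tested genes, and Eif2b3 was the 1 factor both called and changed by at least 2-fold, which 14.1% of all tested genes were. The 2 R882H libraries lay outside the range of the EV libraries for 45 of the 55 factors (81.8%), as they did for 69.1% of all tested genes. This held for 22 of the 32 uncalled factors too, so a lack of overlap, given below for single genes, adds little to a call. Without R882H replicate 1 the median log2 fold change was −0.22 for the factors and 0.01 for all tested genes. Fewer genes were called there, among the factors as among all genes, and the larger share of lower calls among the factors was not kept. Without R882H replicate 2, 4 were higher and 10 lower (1648 and 1511 of 11806 genes), and without EV replicate 1, 8 were higher and 21 lower (2065 and 2168 of 11864 genes). When genes with overlapping exons were left out, 2 of 42 factors were higher and 16 lower, beside 1560 higher and 1577 lower of 7943 genes. Eef1a1, Eef1b2 and Eif4a2 were among those left out, and no factor still tested lost its call. DESeq2 called 5 of the 55 factors higher and 16 lower, beside 1297 higher and 1412 lower of 12972 tested genes. In DESeq2 the share called was thus larger among the factors than among all genes. That comparison takes no account of expression level, since no DESeq2 share was computed for genes of similar level. The median level was 215.5 CPM for the factors and 27.9 CPM for all genes tested by edgeR.

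**Figure D1:**
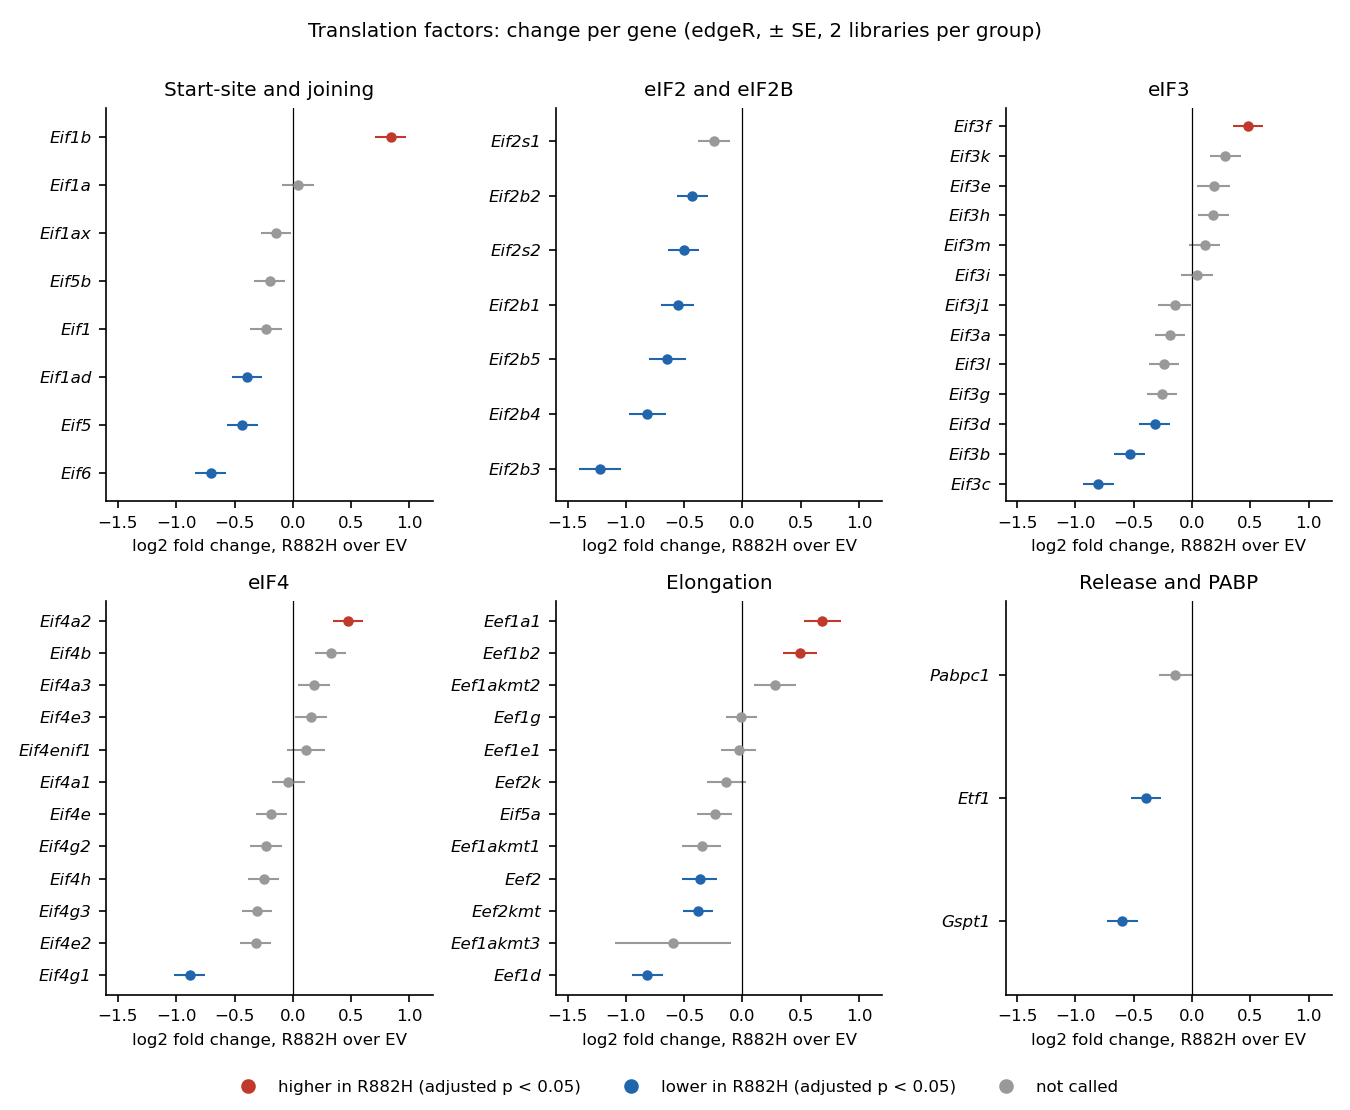
Log2 fold change of each of the 55 translation factors (R882H over EV, horizontal axis; points with standard error from the edgeR fit over 2 libraries per group), in 6 panels by role. Red points are the 5 called higher, blue points the 18 called lower and grey points the 32 not called; in the eIF2 and eIF2B panel every point lies below 0.

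The starts of genes whose factors moved together or apart are shown here because the 5′ ends of such mRNAs are known for pyrimidine runs and because the E-box CACGTG, the element bound by MYC, is found near several of them. RefSeq (GRCm38.p6, the assembly of mm10) gave promoter windows of 250 bases before to 50 bases from the annotated start for 41 of the 55 factors. Each line below gives 60 bases, 30 before the annotated start and 30 from it on, on the gene's strand. In the first 5 lines capitals mark the longest unbroken run of C and T within 20 bases either side of the start, for the eIF2B genes with a window, all lower in R882H, and for Eif3f, which was higher.
Eif2b1, chr5:124579102-124579161, minus strand: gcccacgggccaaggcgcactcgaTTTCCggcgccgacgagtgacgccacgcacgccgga
Eif2b2, chr12:85219451-85219510, plus strand: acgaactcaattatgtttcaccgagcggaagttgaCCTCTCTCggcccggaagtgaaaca
Eif2b4, chr5:31193110-31193169, minus strand: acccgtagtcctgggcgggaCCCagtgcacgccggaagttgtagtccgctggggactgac
Eif2b5, chr16:20498787-20498846, plus strand: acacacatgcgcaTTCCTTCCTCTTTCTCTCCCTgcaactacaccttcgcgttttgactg
Eif3f, chr7:108934385-108934444, plus strand: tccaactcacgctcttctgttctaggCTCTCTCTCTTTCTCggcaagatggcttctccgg
In the next 2 lines capitals mark the E-box, for a factor higher in R882H (Eif1b) and for one lower in R882H (Eif4g1).
Eif1b, chr9:120492576-120492635, plus strand: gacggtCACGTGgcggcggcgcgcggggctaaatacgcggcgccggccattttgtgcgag
Eif4g1, chr16:20672697-20672756, plus strand: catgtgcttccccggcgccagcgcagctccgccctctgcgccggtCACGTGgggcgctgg

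The run near the start was 21 bases in Eif2b5, 15 in Eif3f, 8 in Eif2b2, 5 in Eif2b1 and 3 in Eif2b4, so the eIF2B genes did not share it. Only bases within 20 of the start were counted, in every gene, so a run that crosses that edge was cut short. Counted in this way, a run of at least 8 bases was present in 9 of the 41 factors (22.0%). The share was 18.4% of all 27025 genes with a window and 19.0% of the 8578 tested ones. Such a run was present in 2 of 5 factors higher in R882H (Eef1a1 and Eif3f), in 2 of 14 lower ones (Eif2b2 and Eif2b5) and in 5 of 22 not called. These counts leave out Eef2 (lower, 6 bases counted), Eif3k (not called, 7) and Eef2k (not called, 6). Their runs reach at least 8 bases when followed past the edge. The E-box CACGTG, which reads the same on both strands, stood in the windows of 11 of the 41 factors (26.8%), against 8.09% of all genes with a window and 12.2% of the tested ones. It was present in 2 of the 5 factors higher in R882H (Eif1b and Eif3f), in 2 of the 14 lower ones (Eef2 and Eif4g1) and in 7 of the 22 not called. These are counts of letters near annotated starts and not of sites in use.

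All 5 subunit genes of eIF2B, the exchange factor that reloads eIF2 with GTP and that stress signalling blocks through phosphorylated eIF2, fell in R882H, and their summed level was 194 and 209.8 CPM in R882H, against 304 and 314 CPM in EV. Among all tested genes 19.4% were called lower. Eif2b3, the gamma subunit of the catalytic part (ENSMUSG00000028683, mm10 chromosome 4, 117019402 to 117087306), had 13.7 and 15.97 CPM in R882H libraries 1 and 2, against 34.5 and 34.8 CPM in EV libraries 1 and 2. Both R882H libraries were thus well under both EV libraries, with a log2 fold change of −1.22 ± 0.18 (SE) and an edgeR adjusted p of 1.02e-06. Eif2b5, the epsilon subunit that holds the catalytic centre (ENSMUSG00000003235, chromosome 16, 20498817 to 20509323), had 27.8 and 33.0 CPM in R882H, against 44.4 and 50.5 CPM in EV. Its log2 fold change was −0.64 ± 0.16 (edgeR adjusted p = 0.00156), with no overlap of the groups.

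The other 3 subunits, alpha, beta and delta, form the regulatory part of eIF2B that senses phosphorylated eIF2. Eif2b4, the delta subunit (ENSMUSG00000029145, chromosome 5, 31187558 to 31193430), had 27.4 and 24.2 CPM in R882H, against 44.2 and 46.8 CPM in EV (log2 fold change −0.82 ± 0.16, edgeR adjusted p = 0.000127). Eif2b1, the alpha subunit (chromosome 5, 124570213 to 124579131), had 43.7 and 49.3 CPM in R882H, against 71.5 and 65.1 CPM in EV (−0.56 ± 0.14, adjusted p = 0.00175). Eif2b2, the beta subunit (chromosome 12, 85219481 to 85226628), had 81.0 and 87.2 CPM in R882H, against 109.7 and 117 CPM in EV (−0.43 ± 0.13, adjusted p = 0.00899). None of these groups overlapped. The exons of Eif2b4 overlap those of Snx17 on the other strand, which had 259 and 230 counts in R882H and 256 and 337 in EV, beside 808 counts of Eif2b4 in all 4 libraries, and without a known strand setting such reads cannot be told apart. Of the 5 calls, those of Eif2b3 and Eif2b4 were kept in every alternative in which they were tested. Those of Eif2b1 (adjusted p = 0.0745), Eif2b2 (0.176) and Eif2b5 (0.0639) ended without R882H replicate 1, and that of Eif2b2 also without R882H replicate 2 (0.0637).

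eIF2 itself, the substrate of eIF2B, was lower in its beta subunit. Eif2s2 (ENSMUSG00000074656, chromosome 2, 154871410 to 154892935) had 327 and 334 CPM in R882H, against 495 and 443 CPM in EV, so the R882H libraries lay close together below both EV libraries (log2 fold change −0.50 ± 0.13, edgeR adjusted p = 0.00286). That call ended without R882H replicate 1 (adjusted p = 0.0827) and without R882H replicate 2 (0.0591). Eif2s1, the alpha subunit whose phosphorylation is the stress signal, had 182 and 212 CPM in R882H, against 255 and 212 CPM in EV, so that the higher R882H library and the lower EV library were nearly equal. It was not called (−0.25 ± 0.14, edgeR adjusted p = 0.151), but passed without EV replicate 2 (−0.38, adjusted p = 0.0285). The gamma subunit genes are no members of the set: Eif2s3x had a log2 fold change of 0.03, and Eif2s3y is among the Y-linked counts above.

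**Figure D2:**
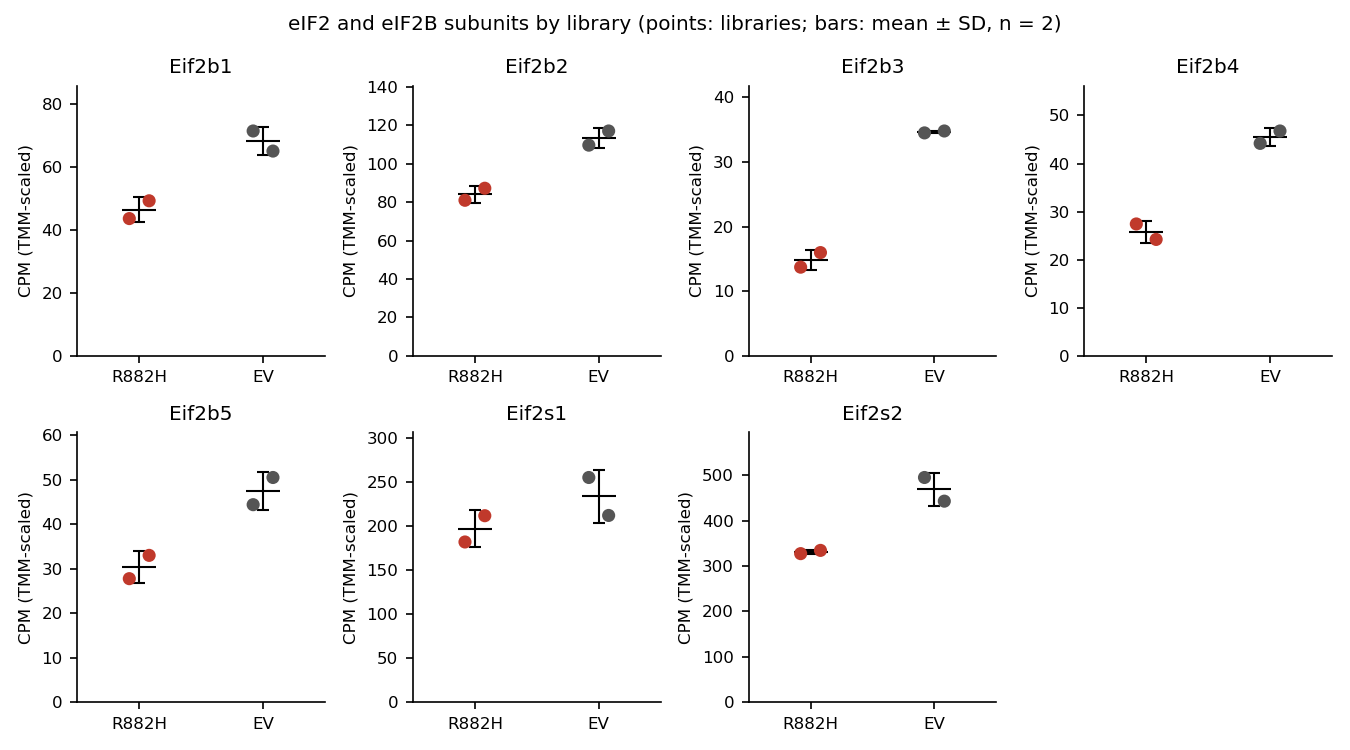
CPM (TMM-scaled) of the 5 eIF2B subunit genes and of 2 eIF2 subunit genes in each library, with R882H in red and EV in grey; points are libraries and bars are mean ± SD (n = 2). Eif2b3 had 14.8 ± 1.59 CPM in R882H and 34.6 ± 0.209 CPM in EV, and in each of the 7 panels both R882H points lie below both EV points, for Eif2s1 by a small margin only.

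Among start-site selection and subunit joining factors, 1 of 8 genes rose, 3 fell and 4 were not called. The shares among all tested genes were 19.3% higher and 19.4% lower. Eif1b, the less abundant paralogue of eIF1, a factor that guards the choice of the start codon (ENSMUSG00000006941, chromosome 9, 120492232 to 120495330), had 149 and 159 CPM in R882H, against 84.9 and 86.8 CPM in EV. Its log2 fold change of 0.84 ± 0.13 was the largest rise among the 55 factors (edgeR adjusted p = 3.70e-06), called in every alternative. Eif1 had 613 and 578 CPM in R882H, against 656 and 742 CPM in EV, and was not called (−0.23 ± 0.14, adjusted p = 0.184), although it passed without EV replicate 1 (−0.32, adjusted p = 0.0400). Eif1b thus made up 19.5% and 21.5% of the counts of the pair in R882H, against 11.5% and 10.5% in EV. These shares did not overlap, but an exact two-sided permutation test of 2 against 2 libraries cannot give a p below 0.333, which is what it gave.

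Eif6, which keeps the large ribosomal subunit from joining too early and takes part in its assembly (ENSMUSG00000027613, chromosome 2, 155819832 to 155826925), had 83.3 and 80.9 CPM in R882H, against 124 and 144 CPM in EV. The groups did not overlap (log2 fold change −0.70 ± 0.13, edgeR adjusted p = 6.33e-05), and every alternative kept the call. Eif5, which triggers GTP hydrolysis by eIF2, had 314 and 287 CPM in R882H, against 409 and 403 CPM in EV (−0.43 ± 0.13, adjusted p = 0.00880). Eif1ad, an eIF1A-like protein of small-subunit maturation, had 119 and 126 CPM in R882H, against 159 and 161 CPM in EV (−0.39 ± 0.13, adjusted p = 0.0165). Eif5b, the joining factor, had 270.1 and 287 CPM in R882H, against 355 and 285 CPM in EV; the ranges overlapped and it was not called with all 4 libraries (−0.20 ± 0.14), but was without EV replicate 2 (−0.36, adjusted p = 0.0289). Without R882H replicate 1 the calls of Eif5 (adjusted p = 0.0692) and Eif1ad (0.220) ended, as they did without R882H replicate 2 (0.203 for Eif5 and 0.113 for Eif1ad). Exons of Eif1ad overlap those of Banf1 on the other strand, which had 13216 counts to 3210 of Eif1ad.

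eIF3 is the largest initiation factor, a scaffold on the small subunit built on a core of PCI-domain and MPN-domain subunits. Its summed level over 13 subunit genes was 3539 and 3530 CPM in R882H, against 3625 and 3588 CPM in EV, and of the 13 genes 1 rose, 3 fell and 9 were not called, beside 19.3% higher and 19.4% lower among all tested genes. Eif3c, a PCI subunit of the core (ENSMUSG00000030738, chromosome 7, 126546455 to 126566411), had 181 and 171 CPM in R882H, against 294 and 319 CPM in EV. Both R882H libraries were far below both EV libraries (log2 fold change −0.80 ± 0.13, edgeR adjusted p = 7.97e-06), a call that every alternative kept. Eif3f, an MPN subunit of the core (ENSMUSG00000031029, chromosome 7, 108934417 to 108942951), had 417 and 399 CPM in R882H, against 277 and 308 CPM in EV, with no overlap (0.48 ± 0.13, adjusted p = 0.00410).

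Eif3b, an RNA-binding scaffold subunit outside the PCI and MPN core, had 133 and 146 CPM in R882H, against 184 and 219 CPM in EV (log2 fold change −0.53 ± 0.13, edgeR adjusted p = 0.00176). Eif3d, a peripheral subunit that can bind the cap of some mRNAs, had 228 and 231 CPM in R882H, against 277 and 297 CPM in EV (−0.32 ± 0.13, adjusted p = 0.0488). The 9 subunits not called had log2 fold changes of −0.26 (Eif3g), −0.24 (Eif3l), −0.19 (Eif3a), −0.15 (Eif3j1), 0.04 (Eif3i), 0.11 (Eif3m), 0.18 (Eif3h), 0.19 (Eif3e) and 0.28 (Eif3k). Among these, Eif3k had 497 and 472 CPM in R882H, against 419 and 377 CPM in EV (adjusted p = 0.0905). The PCI-domain subunits (Eif3a, Eif3c, Eif3e, Eif3k, Eif3l and Eif3m) included both Eif3c, with the lowest value of the complex, and 3 genes with values above 0. Without R882H replicate 1 the calls of Eif3f (adjusted p = 0.0756), Eif3b (0.0841) and Eif3d (0.297) ended. The Eif3d call, which lies at the threshold, also ended without EV replicate 2 (0.0891), without R882H replicate 2 (0.254), without a filter on low counts (0.0740), with the replicate number as a block (0.0612) and in DESeq2 (0.0618). Without EV replicate 1, Eif3e (0.40, adjusted p = 0.0181), Eif3k (0.36, 0.0284) and Eif3l (−0.33, 0.0379) passed, and without EV replicate 2 the values of Eif3e and Eif3m turned to −0.01 and −0.02.

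In the eIF4 group, taken by symbol and named for the factors that recruit the capped mRNA, 1 of 12 genes rose, 1 fell and 10 were not called. Among all tested genes 19.3% were higher and 19.4% lower. Eif4g1, the main scaffold of the cap-binding complex (ENSMUSG00000045983, chromosome 16, 20668313 to 20692884), had 149.9 and 147 CPM in R882H, against 253 and 295 CPM in EV. Its log2 fold change of −0.88 ± 0.13 (edgeR adjusted p = 2.03e-06) was the second largest fall among the 55 factors, the groups were far apart, and the call was kept in every alternative. Its homologues had smaller differences that were not called. Eif4g2 (DAP5), which does not bind the cap-binding protein, had 1144 and 1112 CPM in R882H, against 1329.5 and 1319.8 CPM in EV (−0.23 ± 0.14, adjusted p = 0.192), and Eif4g3 had 155 and 139 CPM in R882H, against 185 and 179 CPM in EV (−0.31 ± 0.13, adjusted p = 0.0595). Eif4g1 made up 10.3% and 10.5% of the counts of the 3 genes in R882H, against 14.3% and 16.4% in EV (exact permutation p = 0.333, the smallest that 2 against 2 allows). Eif4g3 passed without EV replicate 2 (adjusted p = 0.0477), with library size only (0.0460) and when genes with overlapping exons were left out (0.0476).

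Eif4a2, a paralogue of the helicase eIF4A1 (ENSMUSG00000022884, chromosome 16, 23107444 to 23114136), had 197 and 187 CPM in R882H, against 139.9 and 137 CPM in EV, with no overlap (log2 fold change 0.47 ± 0.13, edgeR adjusted p = 0.00399). The more abundant Eif4a1 had 896 and 971 CPM in R882H, against 1008 and 909 CPM in EV; the ranges overlapped (−0.04 ± 0.14, adjusted p = 0.855), and leaving out EV replicate 1 or R882H replicate 1 turned its sign (0.03 in both). Eif4a2 made up 18% and 16.2% of the counts of the pair in R882H, against 12.2% and 13.1% in EV (exact permutation p = 0.333). The cap-binding protein gene Eif4e had 199 and 211 CPM in R882H, against 249 and 217 CPM in EV (−0.18 ± 0.13, adjusted p = 0.280), and its relatives Eif4e2 and Eif4e3 had −0.32 ± 0.13 (adjusted p = 0.0512) and 0.15 ± 0.14 (0.400). Without R882H replicate 1 the call of Eif4a2 ended (adjusted p = 0.0772), and its exons overlap those of Rfc4 on the other strand (1218 counts, to 3780 of Eif4a2). Eif4e2 lay at the threshold and passed in 5 alternatives, with adjusted p between 0.0425 and 0.0498.

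**Figure D3:**
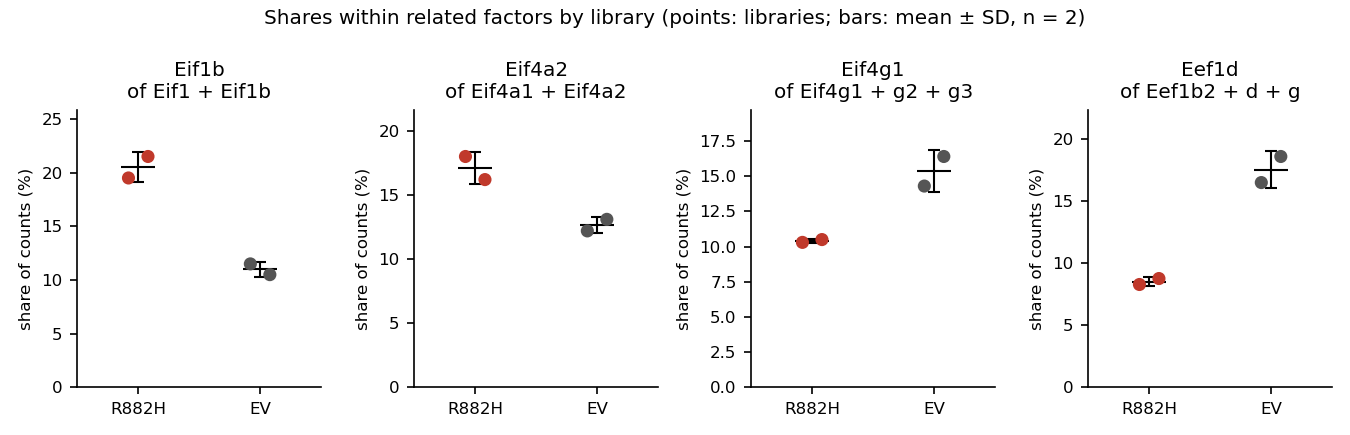
Share of counts (percent, vertical axis) taken by Eif1b, Eif4a2, Eif4g1 and Eef1d within their group of related factors, in each library; red points are R882H, grey points EV, and bars are mean ± SD (n = 2). Shares were 17.1 ± 1.31% in R882H and 12.6 ± 0.632% in EV for Eif4a2, and 8.53 ± 0.339% in R882H and 17.5 ± 1.53% in EV for Eef1d.

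The 12 genes of the elongation group, taken by symbol, included Eef1a1, the most abundant of the 55. The group also held Eef1e1 and genes of methyltransferases and a kinase of the factors. Its genes changed in both directions: 2 rose, 3 fell and 7 were not called, beside 19.3% higher and 19.4% lower among all tested genes. Eef1a1, which delivers aminoacyl-tRNA to the ribosome (ENSMUSG00000037742, chromosome 9, 78478449 to 78489151), had 12191 and 10822 CPM in R882H, against 7246 and 7067 CPM in EV. It alone took 1.23% and 1.05% of all counts in R882H, against 0.722% and 0.714% in EV (log2 fold change 0.69 ± 0.16, edgeR adjusted p = 0.000699; called in every alternative that tested it). All 55 factors together held 3.13% and 2.92% of counts in R882H, against 2.78% and 2.80% in EV, and without Eef1a1 they held 1.90% and 1.87% in R882H, against 2.06% and 2.08% in EV. The direction of the total therefore turned on this gene. Its exons hold the annotated microRNA gene Gm26377, for which 176098 counts were listed, so reads over it may have been counted for both genes. Only 0.0477% as many counts as Eef1a1 had were listed for 8 annotated pseudogenes with a near-identical 3′ end.

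The eEF1B complex recharges eEF1A with GTP, and its subunit genes moved apart. Eef1b2, an exchange subunit (ENSMUSG00000025967, chromosome 1, 63176825 to 63180486), had 2181 and 2101 CPM in R882H, against 1645 and 1391 CPM in EV (log2 fold change 0.50 ± 0.15, edgeR adjusted p = 0.00687). Eef1d, the other exchange subunit (ENSMUSG00000055762, chromosome 15, 75894205 to 75909556), had 251 and 261 CPM in R882H, against 449 and 453 CPM in EV. This fall (−0.82 ± 0.13, adjusted p = 6.07e-06) was kept in every alternative, and Eef1d made up 8.29% and 8.77% of the counts of the 3 subunit genes in R882H, against 16.5% and 18.6% in EV (exact permutation p = 0.333). Eef1g, the structural subunit, had 599.7 and 613 CPM in R882H, against 633 and 587 CPM in EV (−0.01 ± 0.14, adjusted p = 0.964), with values of 0.04 without EV replicate 1 and 0.02 without R882H replicate 1. Leaving out R882H replicate 1 (adjusted p = 0.0946) or R882H replicate 2 (0.0541) ended the call of Eef1b2, and its exons overlap those of Ndufs1 on the other strand, which had 2595 counts to 41858 of Eef1b2.

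Eef2, which moves the ribosome by a codon (ENSMUSG00000034994, chromosome 10, 81176631 to 81182498), had 1638 and 1548 CPM in R882H, against 1815 and 2296 CPM in EV. The EV libraries differed from each other more than the nearer of them differed from R882H, and the call was marginal (log2 fold change −0.37 ± 0.15, edgeR adjusted p = 0.0482). Eef2kmt, the methyltransferase of eEF2, had 76.6 and 70.6 CPM in R882H, against 94.4 and 97.3 CPM in EV (−0.38 ± 0.13, adjusted p = 0.0209). Eif5a, the hypusine-carrying factor that helps stalled ribosomes, had 1970.2 and 2490.2 CPM in R882H, against 2651 and 2603 CPM in EV, and was not called (−0.24 ± 0.15, adjusted p = 0.217). The Eef2 call ended without EV replicate 2 (−0.19, adjusted p = 0.233), without R882H replicate 1 (0.203) or 2 (0.331), with the replicate block (0.0936), without a filter on low counts (0.0642) and with robust=FALSE (0.0537). That of Eef2kmt ended in DESeq2 (0.0879) and when either R882H library was left out (0.0979 without replicate 1 and 0.252 without replicate 2), and its exons overlap those of Alg1 on the other strand (978 counts, to 1926 of Eef2kmt).

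Both release factors fell, as did 19.4% of all tested genes. Gspt1, which encodes the GTPase eRF3 (ENSMUSG00000062203, chromosome 16, 11219292 to 11254325), had 99.4 and 112 CPM in R882H, against 146 and 174 CPM in EV (log2 fold change −0.60 ± 0.14, edgeR adjusted p = 0.000587). Etf1, which encodes eRF1, the protein that reads stop codons (chromosome 18, 34902785 to 34932007), had 134 and 131 CPM in R882H, against 181 and 168 CPM in EV (−0.40 ± 0.13, adjusted p = 0.0153). Neither pair of groups overlapped. Pabpc1, the poly(A)-binding protein that links the mRNA tail to eIF4G, had 1335 and 1182 CPM in R882H, against 1376 and 1405 CPM in EV, and was not called (−0.14 ± 0.14, adjusted p = 0.448). The calls of Gspt1 (adjusted p = 0.0553) and Etf1 (0.140) ended without R882H replicate 1, and that of Etf1 also without R882H replicate 2 (0.169). An antisense gene over Gspt1, 2610020C07Rik, had 74 counts to 3015 of Gspt1.

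The remaining 11 factors, none of them called, were Eif1a, Eif1ax, Eif4a3, Eif4b, Eif4h, Eif4enif1, the eEF1A methyltransferase genes Eef1akmt1, Eef1akmt2 and Eef1akmt3, Eef1e1 and the eEF2 kinase gene Eef2k. Their log2 fold changes ran between −0.59 and 0.33, with 6 below and 5 above 0, and their smallest edgeR adjusted p was 0.0533.

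A second list held 41 genes that act on these factors: eIF2 kinases and phosphatase subunits, 4E-binding proteins, mTOR and MNK kinases, poly(A)-binding protein partners, hypusine enzymes and ribosome rescue factors. Of the 40 that were tested, 4 rose and 12 fell, with a median log2 fold change of −0.24. Among all tested genes 19.3% were higher and 19.4% lower, 38.8% in either direction. DESeq2 called 4 higher and 7 lower, and leaving out R882H replicate 1 gave 2 higher and 7 lower. The counts were 4 higher and 5 lower without R882H replicate 2, and 7 higher and 12 lower without EV replicate 1. When genes with overlapping exons were left out, 2 of 26 were higher and 7 lower, beside 1560 higher and 1577 lower of 7943 genes. Over all genes DESeq2 also called fewer, with 1297 higher and 1412 lower of 12972, against 2213 and 2222 of 11444 by edgeR. Gspt2 had 0 counts in all 4 libraries. Gcn1, the ribosome-bound activator of the amino acid sensing eIF2 kinase, had 45.7 and 47.2 CPM in R882H, against 84.5 and 98.5 CPM in EV (log2 fold change −0.98 ± 0.14, edgeR adjusted p = 6.03e-07). Eif2ak1, the eIF2 kinase that heme inhibits, had 90.2 and 111 CPM in R882H, against 138 and 142 CPM in EV (−0.48 ± 0.13, adjusted p = 0.00494). The other eIF2 kinase genes Eif2ak2, Eif2ak3 and Eif2ak4 were not called. The Eif2ak1 call ended without R882H replicate 1 (adjusted p = 0.243), and its exons overlap those of Aimp2 on the other strand (1875 counts, to 2722 of Eif2ak1).

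Of the 3 genes for 4E-binding proteins, 1 fell, 1 rose and 1 was not called. Eif4ebp1, whose product keeps eIF4E from eIF4G until mTOR phosphorylates it, had 73.8 and 71.6 CPM in R882H, against 142 and 131 CPM in EV (log2 fold change −0.91 ± 0.13, edgeR adjusted p = 1.12e-06). Its relative Eif4ebp2 had 351 and 314 CPM in R882H, against 227 and 243 CPM in EV (0.50 ± 0.13, adjusted p = 0.00264). Eif4ebp3 had 20.7 and 25.6 CPM in R882H, against 27.7 and 28.1 CPM in EV, and was not called (−0.27 ± 0.17, adjusted p = 0.228). Paip2, an inhibitor of the poly(A)-binding protein, had 489 and 479 CPM in R882H, against 314 and 251 CPM in EV (0.78 ± 0.14, adjusted p = 2.54e-05). Larp1, which binds mRNAs that start with a pyrimidine run, had 371 and 395 CPM in R882H, against 625 and 579 CPM in EV (−0.65 ± 0.13, adjusted p = 0.000202). None of these groups overlapped, those of the uncalled Eif4ebp3 included, which also held for 69.1% of all tested genes. The Eif4ebp2 call ended without R882H replicate 1 (adjusted p = 0.0923).

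Among the others, Dohh, the second enzyme of hypusine formation on eIF5A, fell (log2 fold change −0.85 ± 0.14), as did the MNK kinase genes Mknk1 (−0.59 ± 0.17) and Mknk2 (−0.35 ± 0.13), the scanning helicase gene Dhx29 (−0.52 ± 0.16), the S6 kinase gene Rps6kb1 (−0.55 ± 0.14), Mtor (−0.42 ± 0.15), the reinitiation factor gene Denr (−0.42 ± 0.13) and Larp4 (−0.36 ± 0.13). Pelo, which frees stalled ribosomes (0.72 ± 0.16), and Eif2a, an alternative carrier of initiator tRNA (0.48 ± 0.13), rose. Reads of Pelo cannot be told apart from those of Gm49395, which shares its strand and has the same 899 counts, and Eif2a overlaps Serp1 on the other strand (8568 counts, to 1734 of Eif2a). Smaller overlaps were those of Rps6kb1 with Rnft1 (309 counts, to 1174) and of Denr with Gm43518 (492 counts, to 6347). Adjusted p-values, from edgeR unless DESeq2 is named, stand in brackets here. Without R882H replicate 2 the calls of Rps6kb1 (0.0906), Mknk1 (0.112), Dhx29 (0.118), Mtor (0.192), Mknk2 (0.233), Larp4 (0.122) and Denr (0.0570) ended, and without R882H replicate 1 those of Eif2a (0.0971), Mtor (0.113), Mknk2 (0.190), Larp4 (0.296) and Denr (0.261). Without EV replicate 2 those of Mknk1 (0.0696), Mknk2 (0.0890) and Mtor (0.104) ended, without EV replicate 1 those of Larp4 (0.0843) and Denr (0.0520), and in DESeq2 those of Mtor (0.147), Mknk1 (0.0855), Mknk2 (0.0954), Larp4 (0.0750) and Dhx29 (0.0780).

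**Figure D4:**
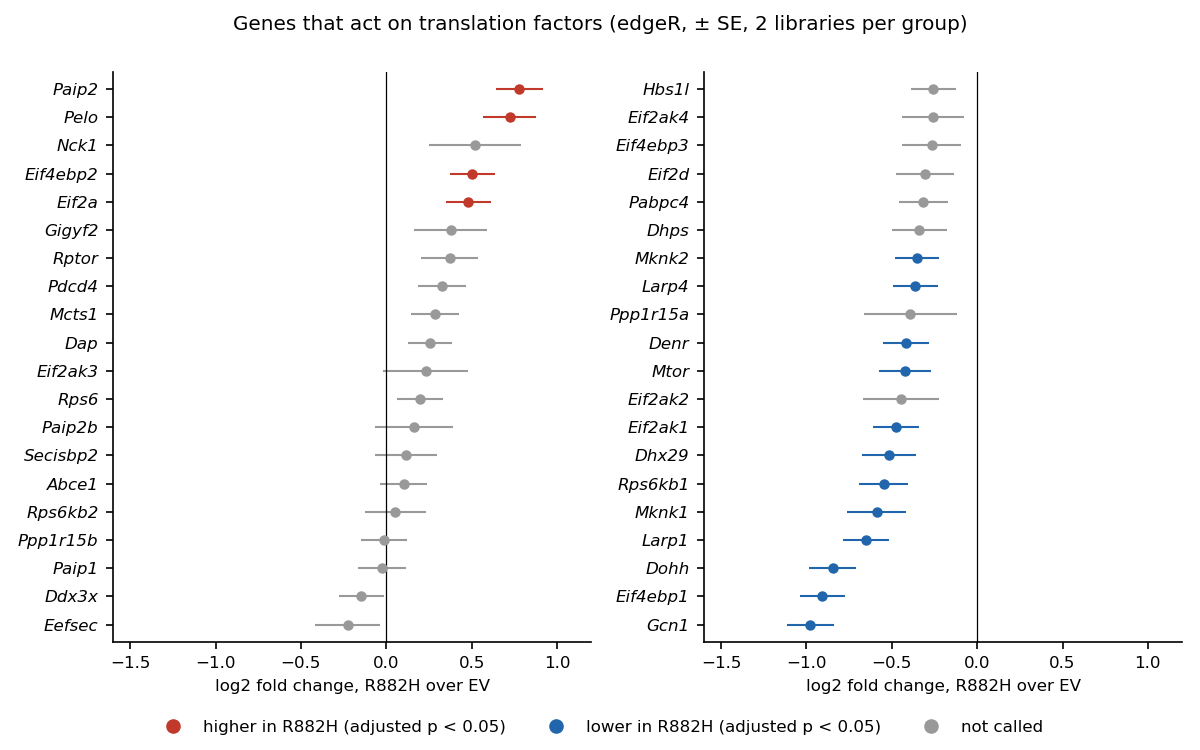
Log2 fold change (R882H over EV, horizontal axis) of 40 tested genes that act on translation factors, ordered by value over 2 panels; points carry the standard error of the edgeR fit over 2 libraries per group. Red marks the 4 called higher, led by Paip2 (0.78), blue the 12 called lower, down to Gcn1 (−0.98), and grey the 24 not called.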

How the data were processed

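RNA of 4 libraries was profiled with a 3′ tag protocol, per the labels' protocols. The values are raw counts per Ensembl gene that the authors deposited, 1 column per library. The submitters' processing notes name the mm10 build, HISAT2 2.0.4, featureCounts from Subread 2.0.0, cutadapt 1.14, limma 3.48.3, edgeR 3.34.0 and bcl2fastq 2.17.1.14. Their roles, the annotation, and how strand and multi-mapping reads were handled were not given in the sources used here.

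Symbols and positions (1-based) came from GENCODE M21, on the mm10 assembly, and the reference name tables: 52489 of 52636 IDs had a symbol. The counts were tested with edgeR 4.0.16 in R 4.3.3. Genes were filtered with filterByExpr, scaled by TMM and tested with robust glmQLFit and glmQLFTest. P-values were adjusted over 11444 genes by Benjamini-Hochberg, with a threshold of 0.05. "Rose", "fell" and "called" are used only past it. CPM use TMM-scaled library sizes, except the floor for 0 counts. Each standard error is the size of the log2 fold change divided by the root of its F. The common biological coefficient of variation was 0.0957. The edgeR script was tested on simulated data. DESeq2 1.42.0 was an alternative. Exon overlaps were sought with any gene of at least 10 counts on either strand, and pseudogenes by alignment of the last 400 bases (at least 200 bases at 90% identity). Floors cover counting error only.

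The members and lists were chosen with earlier results of these data known. Genes named are every called factor, up to 2 uncalled factors with the most counts per role, partners in paralogue pairs and called regulators. The remaining eIF3 subunits, the 11 remaining factors and the uncalled eIF2 kinase and 4E-binding protein genes were named after their values were seen. No p was adjusted over a list alone and no gene set test was run. Between the libraries of a group, counts gave a chi-square per degree of freedom of 4.90 (R882H) and 7.41 (EV), so the libraries of a group differed by more than sampling noise. An erythroid marker list is not reported here.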

Additional observations from a re-analysis of the deposited data

How the results depend on the processing

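Over 14 alternatives, none of the 23 called factors changed direction. Of the 23, 8 kept their call wherever tested (Eif1b, Eif6, Eif2b3, Eif2b4, Eif3c, Eif4g1, Eef1a1 and Eef1d) and 15 lost it at least once. Over all genes, DESeq2 called 1297 higher and 1412 lower of 12972 tested, against 2213 and 2222 of 11444 by edgeR. Leaving out a library gave 1508 to 2065 higher and 1446 to 2168 lower genes, 2 to 8 higher and 6 to 21 lower factors, and 2 to 7 higher and 5 to 12 lower regulators. Without R882H replicate 1 the factors had 2 higher and 6 lower, and without R882H replicate 2 they had 4 higher and 10 lower; without EV replicate 1 they had 8 higher and 21 lower. Without genes whose exons overlap another gene, 42 factors were left, with 2 higher and 16 lower, and 26 regulators, with 2 higher and 7 lower; fewer genes were tested there. DESeq2 called 7 regulators lower. Of the 44 factors refitted by name, 5 uncalled ones turned sign when a library was left out, and the remaining 11 were not followed: log2 fold changes ran from −0.010 to 0.40 for Eif3e and −0.022 to 0.24 for Eif3m (negative without EV replicate 2), −0.047 to 0.15 for Eif3i (negative without R882H replicate 2), −0.12 to 0.034 for Eif4a1 and −0.067 to 0.041 for Eef1g (positive without EV replicate 1 or R882H replicate 1). Replicate numbers did not pair the libraries (correlation of deviations 0.00392); with the replicate block 5 factors were higher and 16 lower, and 2196 genes higher and 2229 lower. Adding pseudogene counts and scaling without Eef1a1, both chosen after seeing the data, left 18 factors lower, with 5 and 4 higher. The second of these took Eef1a1 out of the test, so the 4 are the other higher factors and no call was lost. The median log2 fold change over all genes stayed between −0.01 and 0.02 in every alternative, and that of the factors between −0.25 and −0.21. The cause of lost calls was not tested. With 2 libraries a group, a factor that was not called is not shown to be unchanged, and factors had between 44 and 214055 counts in all.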
